A study of Mus musculus with 22 samples.

Results

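*Errfi1*, *Spry1*, *Spry2*, *Spry4*, *Spred1*, *Spred2*, *Dusp4*, *Dusp6*, *Etv4* and *Etv5* are genes that cells switch on in response to growth factor signaling through the EGF and FGF receptors and the MAP kinase ERK, and most of them then damp that signaling. They were chosen by gene symbol from genes that earlier results of these same libraries had brought forward, and each of the 10 was found on a single row among the 29367 genes of the table. All 10 passed the filter on low counts in every comparison. Since the choice rests on values from these libraries, the differences given for these 10 genes between regions and days are a description, and the p-values printed with them support nothing further.

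The libraries hold mRNA bound to HA-tagged ribosomes of astrocytes from the mouse optic nerve head (ONH), where axons leave the eye, and the optic nerve proper (ONP), the myelinated stretch behind it. Microbeads had been injected into 1 eye to block aqueous outflow and raise intraocular pressure. There were 4 groups, the ONH and the ONP at 7 and at 30 days after injection, with 4 libraries per region at 7 days and 7 per region at 30 days. Total counts ranged from 16292489 to 33307092 per library.

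All groups, the earlier and the later ones alike, shared the same genotype and treatment. The mice carried the Rpl22 ribotag allele and the GFAP-Cre 73.12 transgene, were labelled WT, were 3 to 4 months old and all received microbeads, so none of these libraries is an uninjected control. Cre is driven by the mouse *Gfap* promoter and the tag follows any cell that has used that promoter. Each library pooled tissue of 4 mice, 2 male and 2 female, and per the study's methods ONH and ONP tissue came from the same mice. At 30 days, libraries of the 2 regions with 1 replicate number were taken to share their mice, which is not stated of the numbers themselves. At 7 days libraries could be assigned to a region and a day only, so they are called library a to d and are not paired.

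Growth factor receptors such as EGFR and the FGF receptors activate RAS and a kinase cascade that ends in ERK, which enters the nucleus and drives transcription. Astrocytes carry EGFR and FGFR3, and EGFR signaling is known in reactive optic nerve astrocytes. *Errfi1* encodes MIG6, which binds the kinase domain of EGFR and blocks it. Sprouty (*Spry*) proteins and Spred proteins restrain the pathway near RAS. *Dusp6* and *Dusp4* encode phosphatases that remove the activating phosphates from ERK, in the cytoplasm and the nucleus respectively. *Etv4* and *Etv5* encode ETS transcription factors that are themselves targets of FGF and ERK signaling.

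Promoter sequence is shown for 3 genes, the one with the highest level (*Errfi1*), the one that followed another cell type's markers (*Dusp6*) and the one that was higher at 30 days past the threshold, in the ONP (*Spry2*). Each stretch is the 120 bases before a RefSeq transcript start on mouse GRCm38.p6, read 5′ to 3′ on the gene's strand, outside annotated exons. *Errfi1* has 2 annotated starts, and the stretches before them lie at chr4:150853676-150853795 (plus strand) and at chr4:150854950-150855069 (plus strand). The *Dusp6* stretch lies at chr10:99263111-99263230 (plus strand) and the *Spry2* stretch at chr14:105896820-105896939 (minus strand). Capitals mark motifs found by a letter search on both strands.
Errfi1, upstream start: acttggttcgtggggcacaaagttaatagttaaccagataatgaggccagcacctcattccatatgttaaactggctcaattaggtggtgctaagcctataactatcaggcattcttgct
Errfi1, downstream start: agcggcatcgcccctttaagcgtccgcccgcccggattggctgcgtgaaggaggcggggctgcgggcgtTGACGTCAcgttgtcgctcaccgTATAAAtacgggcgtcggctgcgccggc
Dusp6: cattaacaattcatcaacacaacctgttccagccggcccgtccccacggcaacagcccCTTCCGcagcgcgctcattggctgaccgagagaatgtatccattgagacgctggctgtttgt
Spry2: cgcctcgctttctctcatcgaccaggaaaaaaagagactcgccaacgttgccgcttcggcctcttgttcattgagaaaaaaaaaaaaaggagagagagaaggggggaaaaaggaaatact

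The search covered windows from 250 bases before to 50 after each start. It looked for the cAMP response element TGACGTCA and its half-site TGACG, the AP-1 site TGANTCA, the ETS site CCGGAAGT and its core CGGAAG, the CArG box, which serum response factor binds, and the TATA box TATAAA. In the downstream *Errfi1* start the full cAMP response element, which contains the half-site on both strands, began 51 bases before the start, and the TATA box began 28 bases before it. Of 32851 promoters searched, 1.79% held the full element and 13.6% held TATAAA. The ETS core, held by 16.9% of promoters, lay on the minus strand 62 bases before the *Dusp6* start, and in the *Spred1* and *Spred2* windows as well. The *Spred2* window also held the cAMP half-site, as 20.8% of promoters did, on the minus strand 51 bases before the start. None of these letters occurred in the windows of *Spry1*, *Spry2*, *Etv5* or the upstream *Errfi1* start. A match describes letters in a window, not a bound site.

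Levels are given as CPM, counts scaled to the library size after TMM normalization in edgeR. At these depths 3 counts, taken as the smallest detectable amount, equal 0.0912 to 0.192 CPM, and the lowest count of any of the 10 genes in any library was 11. This limit covers counting error only. Fewer astrocytes in a pool and less of an mRNA per astrocyte cannot be told apart in such bulk libraries. The labelled cell type was checked against 7 astrocyte markers, none of which was at 0 in any library. Their summed level ran from 10603 to 29153 CPM, with *Gfap* the most abundant. The mean sum of 7 oligodendrocyte markers was higher than that of the astrocyte markers in each group, at 24626 against 16622 CPM in the ONH and 91125 against 16575 CPM in the ONP at 7 days, and at 23967 against 16517 CPM and 52028 against 22452 CPM at 30 days.

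Divided by the length of the gene's merged exons, the level of *Errfi1* was the highest of the 10, at 40.2 CPM per kb as the mean of the 4 group means. *Etv5* followed with 17.3, *Dusp6* with 8.85, *Spred1* with 6.87 and *Spry2* with 5.27 CPM per kb. *Spry1* (2.58), *Spry4* (1.96), *Spred2* (1.43) and *Dusp4* (1.22) lay lower on the same scale, and *Etv4* was the lowest at 0.505 CPM per kb. Within groups, the coefficient of variation over libraries ranged from 3.56% for *Etv5* in the ONP at 7 days to 67.2% for *Dusp6* in the ONP at 30 days.

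**Figure D1:**
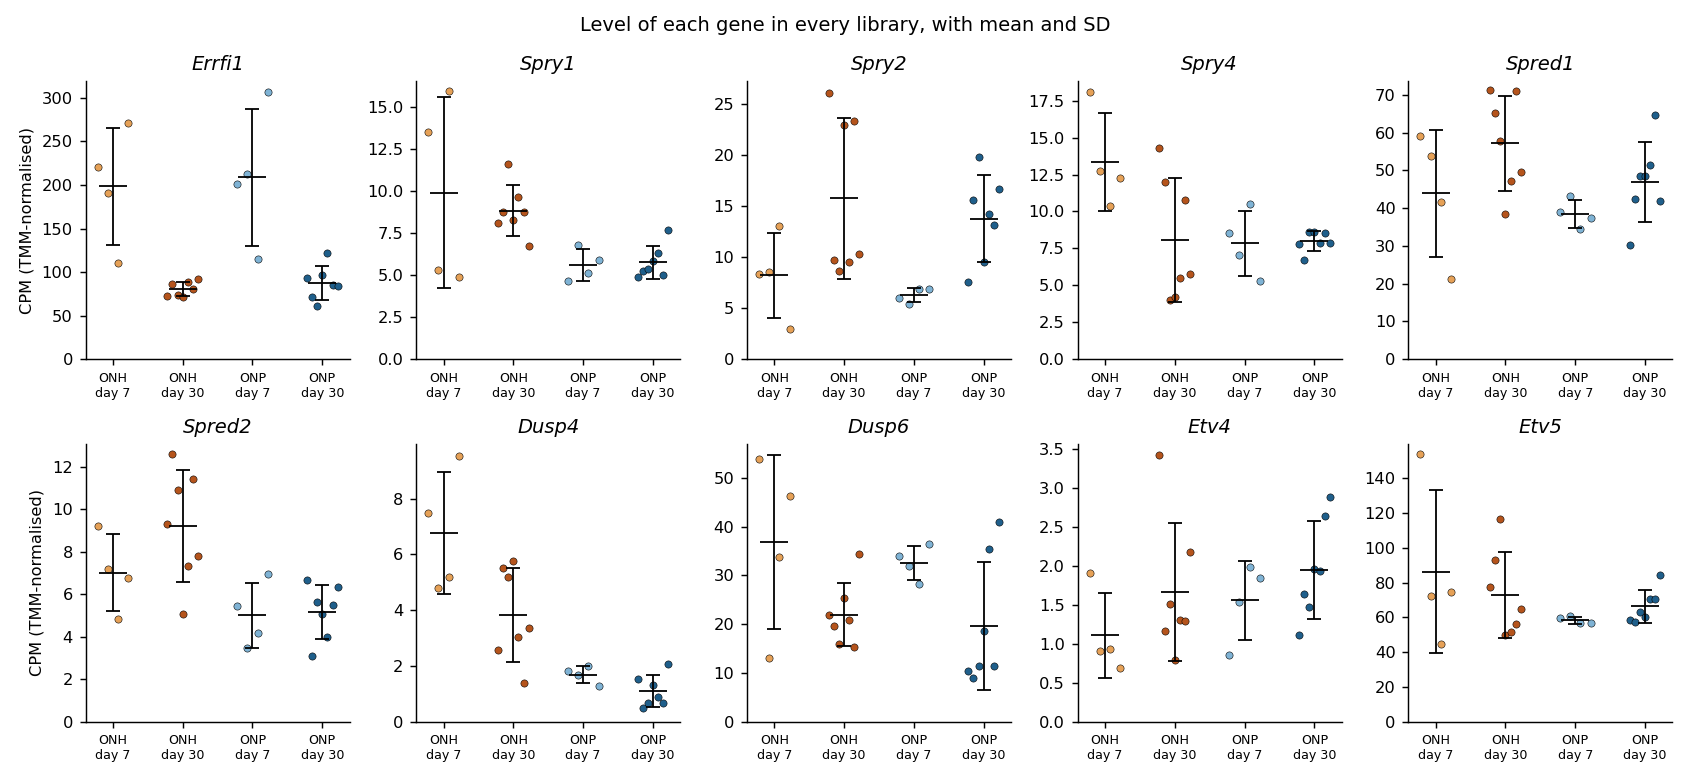
Level of each of the 10 genes (vertical axis, CPM) in every library of the 4 groups (points), with the mean (bar) and SD (whiskers). *Errfi1* lies higher at 7 than at 30 days in both regions, and *Dusp4* lies higher in the ONH than in the ONP at both times.

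*Errfi1* (chr4:150853919-150868892, plus strand, GRCm38), the EGFR inhibitor, showed the same difference between days in both regions. In the ONH at 7 days it measured 221, 191, 110 and 271 CPM in libraries a to d, and at 30 days it measured 72.7, 86.4, 73.1, 71.7, 88, 80.2 and 92.4 CPM in replicates 1 to 7. Every 7 day library of the ONH lay above every 30 day library, a separation in that direction seen for 0.625% of all genes tested in the ONH. In the ONP it measured 201, 213, 115 and 307 CPM at 7 days, whereas the 30 day replicates measured 93.6, 70.8, 61.5, 96.3, 122, 85.6 and 83.5 CPM. Here the groups overlapped by a single library, since replicate 5 of the 30 day group (122 CPM) exceeded library c of the 7 day group.

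The group means of *Errfi1* were 198 ± 67.4 CPM (SD, n = 4) in the ONH and 209 ± 78.7 CPM (n = 4) in the ONP at 7 days. They were 80.6 ± 8.43 CPM (n = 7) and 87.6 ± 19.4 CPM (n = 7) at 30 days. In CPM the spread between libraries was thus several times wider at 7 than at 30 days in both regions. Relative to the mean it differed less, with a coefficient of variation of 34.0% and 10.5% in the ONH and of 37.7% and 22.2% in the ONP. The log2 fold change (log2FC) of 30 vs 7 days was -1.29 (SE 0.19) in the ONH and -1.29 (SE 0.22) in the ONP, a 2.44-fold lower level in each. The difference between the regions in this change was -0.00 (SE 0.32). Per the study's methods both regions came from the same mice, whereas this fit took all libraries as independent. The likeness of the 2 regions is therefore not a likeness between separate animals. Within a day, the regions differed by a log2FC of -0.05 (SE 0.31) at 7 days and -0.08 (SE 0.13) at 30 days, less than the spread between libraries.

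The test was the quasi-likelihood test of edgeR, with p-values adjusted over all genes tested by the Benjamini-Hochberg method and a threshold of 0.05. For 30 vs 7 days in the ONH, 0% of the 15668 genes tested passed, and accordingly none of the 10 genes passed. An unadjusted p under 0.05 was found for 2179 of all genes and for 2 of the 10, *Errfi1* and *Dusp6*. *Errfi1* had the second smallest p-value of all genes there, with an adjusted p of 0.0700 by edgeR. Its call turned on the method, since the adjusted p was 4.79e-06 with DESeq2, which called 446 genes, and 0.0144 with all 4 groups in a single edgeR fit, which called 292. Leaving out single libraries moved it from 0.00252 (without ONH library c at 7 days) to 0.264.

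Of the 10 genes 4 were higher and 6 lower in the ONH, with a median log2FC of -0.20 against -0.02 over all genes, and 6 were higher and 4 lower in the ONP, with a median of 0.01 against -0.01. The sign of both medians turned with the library left out. The ONH median ran from -0.36 without library b to 0.10 without library a at 7 days, and the ONP median from -0.02 to 0.10.

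For 30 vs 7 days in the ONP, 17% of the 15491 genes tested passed the threshold, and of the 10 genes *Errfi1* (adjusted p = 0.00349, edgeR) and *Spry2* (adjusted p = 0.0117, edgeR) did. Both calls held when each library was left out in turn. With all 4 groups in a single fit the adjusted p of *Spry2* was 0.0762. For the difference between the regions in the 30 vs 7 day change, 0.543% of 16748 genes passed and none of the 10 did. With DESeq2, 407 genes passed and again none of the 10, and none of the 10 had an unadjusted p under 0.05 with edgeR. The standard errors of this difference, 0.32 to 0.60, leave differences of that size undetectable.

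**Figure D2:**
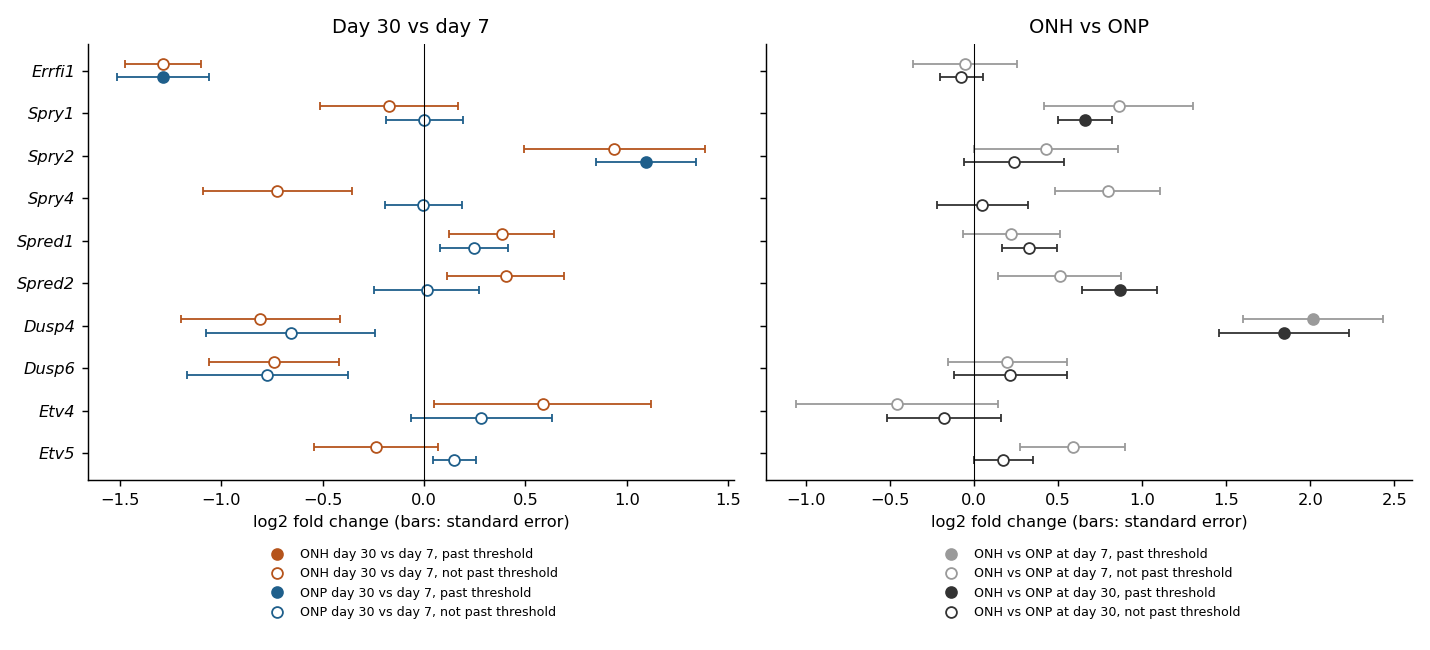
Log2 fold change (horizontal axis, with standard error) of the 10 genes for 30 vs 7 days in each region (left) and for ONH vs ONP at each time (right); filled points passed an adjusted p of 0.05 with edgeR. *Errfi1* has the lowest values on the left, *Spry2* the highest, and *Dusp4* the highest on the right.

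*Spry2* (chr14:105891947-105896819, minus strand), a Sprouty, was the only one of the 10 to be higher at 30 than at 7 days past the threshold, and this was in the ONP. It measured 5.99, 5.37, 6.87 and 6.87 CPM in the ONP at 7 days, against 7.52, 15.6, 19.8, 9.48, 14.2, 13.1 and 16.7 CPM at 30 days. All 30 day libraries of the ONP lay above all 7 day libraries, as for 5.56% of all genes in that direction. The log2FC was 1.09 (SE 0.25), a 2.14-fold higher level, and was 0.99 or more whichever library was left out.

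In the ONH *Spry2* measured 8.3, 8.55, 13 and 2.92 CPM at 7 days, whereas the 30 day replicates measured 26.1, 9.66, 8.58, 22.9, 9.48, 23.3 and 10.3 CPM. The 30 day libraries of the ONH fell into 3 of 22.9 to 26.1 CPM (replicates 1, 4 and 6) and 4 of 8.58 to 10.3 CPM, the latter inside the range of the 7 day libraries. The log2FC was 0.94 (SE 0.45, adjusted p = 0.368, edgeR).

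The other Sproutys of the 10, *Spry1* and *Spry4*, did not pass the threshold between days (edgeR). *Spry1* (chr3:37639947-37644598, plus strand) had a log2FC of 30 vs 7 days of -0.17 (SE 0.34) in the ONH and 0.00 (SE 0.19) in the ONP. In the ONH at 7 days its libraries split into 13.5 and 15.9 CPM (a and c) and 5.26 and 4.87 CPM (b and d). The sign of the ONH value turned with the library left out, from -0.40 without library d to 0.18 without library c.

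*Spry4*, on chromosome 18, measured 18.1, 12.7, 10.4 and 12.3 CPM in the ONH at 7 days. At 30 days the ONH libraries ranged from 4.02 to 14.3 CPM with a median of 5.74, and 3 of them (replicates 1, 2 and 6) reached the level of the 7 day group. The log2FC was -0.72 (SE 0.37, adjusted p = 0.392, edgeR) in the ONH and -0.00 (SE 0.19) in the ONP, where all 30 day libraries lay between 6.74 and 8.64 CPM.

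Neither Spred gene passed the threshold between days (edgeR). *Spred1* (chr2:117121374-117182279, plus strand) had group means of 43.9 ± 16.9 CPM (SD, n = 4) at 7 and 57.1 ± 12.7 CPM (n = 7) at 30 days in the ONH, and of 38.5 ± 3.67 and 46.8 ± 10.5 CPM in the ONP. The log2FC of 30 vs 7 days was 0.38 (SE 0.26) in the ONH, where it was 0.15 without library d at 7 days, and 0.25 (SE 0.17) in the ONP. For *Spred2* (chr11:19924375-20024026, plus strand) these values were 0.40 (SE 0.29) and 0.01 (SE 0.26).

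*Dusp6* (chr10:99263231-99267489, plus strand), the cytoplasmic ERK phosphatase, had a lower mean at 30 days in both regions but wide spread. In the ONH it measured 53.9, 13.1, 33.8 and 46.2 CPM at 7 days, against a range of 15.4 to 34.4 CPM with a median of 20.9 at 30 days. In the ONP the 7 day libraries lay between 28.2 and 36.4 CPM, and the 30 day libraries measured 10.3, 9.03, 11.4, 18.5, 35.5, 11.4 and 40.9 CPM. At 30 days replicates 5 and 7 of the ONP thus stood at or above the 7 day level, and the other 5 lay below it. The log2FC was -0.74 (SE 0.32, adjusted p = 0.336) in the ONH and -0.77 (SE 0.40, adjusted p = 0.199, edgeR) in the ONP.

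Replicates 5 and 7 were also the libraries of the ONP at 30 days with the highest summed level of 8 microglia and macrophage markers, at 1900.2 and 1897 CPM against 138 to 623 CPM in the other 5. In the ONP at 7 days this sum was 877 to 1475 CPM. In the ONH at 7 days library b had the lowest marker sum (80.9 CPM) and the lowest *Dusp6*, but the sum was highest in library d (1029 CPM) and *Dusp6* in library a. In the ONH at 30 days replicate 7 had the highest sum (1497 CPM) and the highest *Dusp6*, but the sum was lowest in replicate 2 (92.7 CPM) and *Dusp6* in replicate 6. *Csf1r* was the most abundant of the 8 markers in 18 of 22 libraries, and at most 1 of the 8 was at 0 in any library.

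Over the 22 libraries, with group means removed on the log2 scale, *Dusp6* correlated with the marker sum at r = 0.91 (Spearman's rank correlation = 0.91, permutation p = 3e-05 and 2e-05, libraries permuted within groups). For all 110 relations this permutation treated the ONH and ONP libraries of 1 replicate number at 30 days as independent. They were taken to share mice, so these p-values may be too small. The r was 0.90 without the 2 libraries farthest from the median of the marker sum. Among 110 relations of the 10 genes with 11 marker lists this was the only one to pass, with an adjusted p of 0.0033, and the next smallest adjusted p was 0.118. *Dusp6* also ran with the oligodendrocyte (r = 0.64), endothelial (r = 0.62) and fibroblast and meningeal sums (r = 0.54) and against the astrocyte sum (r = -0.66), none of which passed over the 110 relations. Without the 2 libraries farthest from the median of each sum, r was 0.60, 0.38, 0.50 and -0.48 in that order. Within the ONH at 30 days alone, r was 0.85 (Spearman's correlation = 0.82, exact permutation p = 0.0254 and 0.0341, n = 7). Within the ONP at 30 days Spearman's correlation was 0.68 (exact permutation p = 0.11, n = 7), which did not pass, and since 2 libraries stood apart no r is given. The other 9 genes had r between -0.36 and 0.40 with the same marker sum.

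Without replicates 5 and 7 of the ONP at 30 days, a choice made after their values were seen, the log2FC of *Dusp6* for 30 vs 7 days in the ONP was -1.42 (SE 0.20), and that of ONH vs ONP at 30 days was 0.87 (SE 0.23) against 0.21 (SE 0.34) with them. Since these are also the 2 libraries of the group with the most *Dusp6*, the choice fixed the direction of both shifts, and a test of them would be void. The part of microglial mRNA in the level of *Dusp6* was not tested.

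**Figure D3:**
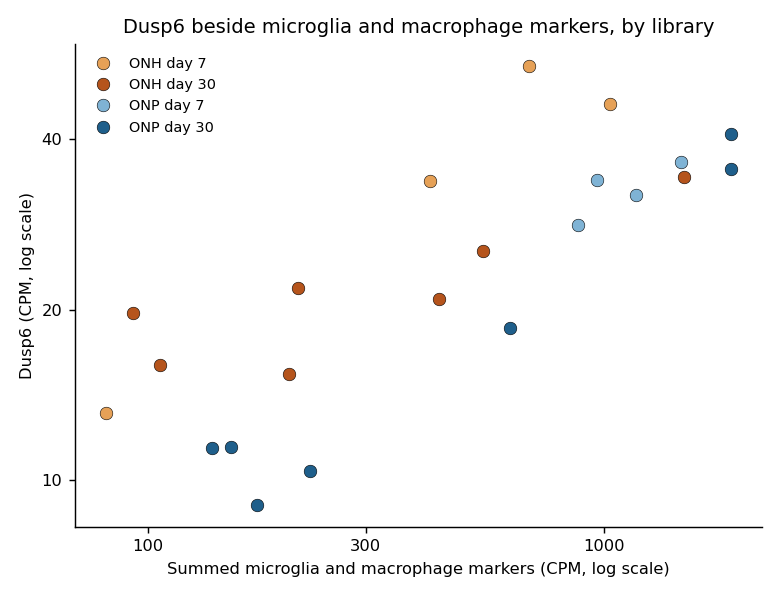
*Dusp6* (vertical axis, CPM, log scale) against the summed level of 8 microglia and macrophage markers (horizontal axis, CPM, log scale), 1 point per library, colored by group. Libraries with more marker mRNA hold more *Dusp6*, with r = 0.91 after removal of group means.

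*Dusp4* (chr8:34807297-34819894, plus strand), the nuclear ERK phosphatase, was the gene of the 10 that set the regions apart most. In the ONH it measured 7.48, 4.81, 5.2 and 9.51 CPM at 7 days, and in the ONP 1.83, 1.66, 1.99 and 1.27 CPM. The 2 groups did not overlap, as for 10.5% of all genes in that direction. At 30 days it measured 2.59, 5.52, 5.17, 5.76, 3.03, 1.38 and 3.35 CPM in the ONH and 1.55, 0.475, 0.676, 1.3, 0.891, 0.685 and 2.07 CPM in the ONP. The ONH exceeded the ONP of the same replicate number in 7 of 7 pairs, although the groups overlapped.

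For ONH vs ONP at 7 days, 6.34% of the 14752 genes tested were higher in the ONH past the threshold, and *Dusp4* was the only one of the 10, with a log2FC of 2.02 (SE 0.42, adjusted p = 0.00999, edgeR). This call was lost in 2 fits added after the data were seen. These were a block on shared column numbers, where the log2FC was no smaller, and a fit without ONH libraries a and d, which held the most *Dusp4*. At 30 days 21.8% of 15133 genes were higher in the ONH past the threshold, and 3 of the 10 were among them. These were *Dusp4* with a log2FC of 1.84 (SE 0.39, adjusted p = 0.00143, edgeR), *Spred2* with 0.87 (SE 0.22, adjusted p = 0.00554) and *Spry1* with 0.66 (SE 0.16, adjusted p = 0.00370). None of the 10 was lower in the ONH past the threshold at either time. All 6 pigment cell markers were higher in the ONH past the threshold at both times. Oligodendrocyte markers were lower there, all 7 at 7 days and 6 of 7 at 30 days. The part of these cell types in the differences of the 10 genes was not tested.

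*Spred2*, an inhibitor of signaling from RAS to ERK, measured 9.29, 12.6, 10.9, 5.08, 7.32, 11.4 and 7.81 CPM in the ONH at 30 days, and 6.68, 3.11, 5.63, 5.06, 3.96, 5.48 and 6.34 CPM in the ONP. It was higher in the ONH in 7 of 7 pairs, but in replicate 4 by almost nothing (5.08 against 5.06 CPM). *Spry1* ranged from 6.69 to 11.6 CPM in the ONH and from 4.86 to 7.64 CPM in the ONP, and was higher in the ONH in 6 of 7 pairs. At 7 days the log2FC of ONH vs ONP was 0.51 (SE 0.36) for *Spred2* and 0.86 (SE 0.44) for *Spry1*, and neither passed the threshold. That of *Spry1* was 0.48 without ONH library c.

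*Spry4* ranged from 10.4 to 18.1 CPM in the ONH and from 5.29 to 10.5 CPM in the ONP at 7 days, so that the groups overlapped only by their closest libraries when all 22 libraries were scaled together, and did not overlap in the scaling of the 8 libraries compared, on which the shares of genes without overlap rest. The ONH vs ONP difference was a log2FC of 0.79 (SE 0.31) with an adjusted p of 0.121 (edgeR). At 30 days the log2FC was 0.05 (SE 0.27).

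The ETS factors passed the threshold in none of the comparisons (edgeR). The mean of *Etv5* (chr16:22381309-22439719, minus strand) was 86.4 ± 47.1 CPM (SD, n = 4) and 72.8 ± 24.7 CPM (n = 7) in the ONH at 7 and 30 days, against 58.4 ± 2.08 CPM (n = 4) and 66.4 ± 9.59 CPM (n = 7) in the ONP. Its spread was wider in the ONH, where the highest library, a at 7 days, reached 154 CPM. The log2FC of *Etv5* for 30 vs 7 days in the ONH was -0.24 (SE 0.31), and its sign turned without library a, to 0.20. *Etv4* (chr11:101769742-101785371, minus strand) stayed between 0.688 and 3.42 CPM in all libraries, and its group means of 1.11 to 1.94 CPM differed by less than their SDs from each neighbor in order.

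The order of the groups differed from gene to gene. *Errfi1* ran from the ONP at 7 days down to the ONH at 30 days, and only the step between the 7 day and the 30 day groups exceeded the larger SD of the neighbors. For *Dusp4* the order was ONH at 7 days, ONH at 30 days, ONP at 7 days and ONP at 30 days, and each step exceeded the larger SD. For *Spry2* both 30 day groups stood above both 7 day groups. For *Spred1*, *Etv4* and *Etv5* no step between neighbors exceeded the larger SD.

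The genes did not vary as a unit within groups. Over the 22 libraries with group means removed, the 45 pairs had a median Pearson r of 0.22, and 29 of them were above 0. The highest were *Spred2* with *Etv5* (r = 0.57) and *Spred1* with *Etv4* (r = 0.53). The lowest was *Errfi1* with *Spry2* (r = -0.50), the 2 genes that passed the threshold between days in the ONP, in opposite directions. The libraries share depth and cell makeup, and the pairs of regions at 30 days were taken to share mice, so these values describe these libraries only.

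**Figure D4:**
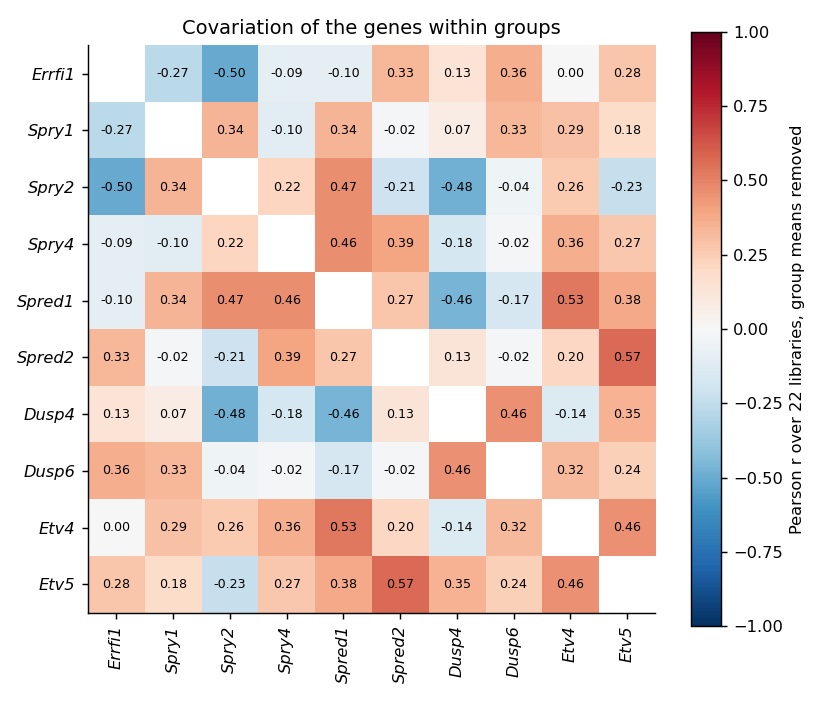
Pearson r (color and number) between each pair of the 10 genes over 22 libraries, after group means were removed from log2 CPM. Values range from -0.50 for *Errfi1* with *Spry2* to 0.57 for *Spred2* with *Etv5*.

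Likeness was measured as the r of each of 16727 other genes with the mean of the 10 genes over the same 22 libraries with group means removed. The highest were *Lrrc8b* (0.81), *Ppfibp1* (0.81), *0610040J01Rik* (0.77), *Mid1* (0.76) and *Mast2* (0.75). The lowest were *Aplnr* (-0.88), *Enkur* (-0.77) and *Gm43481* (-0.77). Without the 2 libraries farthest from the median of that mean, *Mid1* had 0.53, *Mast2* 0.57 and *Gm43481* -0.55, while *Lrrc8b* kept 0.78 and *Aplnr* -0.81. The mean does not stand for each of the 10. With the mean of the other members *Errfi1* had r = 0.03, *Dusp4* -0.03 and *Spry2* -0.04, against 0.63 for *Etv5*. These are the extremes of 16727 values and describe these libraries only.

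The rest of the pathway was taken from 5 lists written with earlier results of these data known. The list called other feedback inhibitors held 20 genes, among them RAS GTPase activating proteins, MAP kinase phosphatases and an ETS factor. It was not limited to genes shown to act on ERK, and feedback from ERK was not tested for its genes. Of the 20, 17 were tested for 30 vs 7 days in the ONP. There 9.21% of all genes were lower at 30 days past the threshold. Of these 17, 6 were lower and 0 higher past the threshold. By the sign of the log2FC alone 10 were lower and 7 higher, with a median over the list of -0.05 against -0.01 over all genes. In the same comparison 6 of 7 oligodendrocyte markers were lower past the threshold (list median log2FC -0.89), and their part in the changes of this list was not tested. *Rasal1*, which encodes a GTPase activating protein for RAS, fell by 2.04 (SE 0.31, adjusted p = 0.00187, edgeR), from 23.9 ± 7.59 to 5.93 ± 2.73 CPM. *Dusp1*, an early response phosphatase of MAP kinases, fell by 1.11 (SE 0.22, adjusted p = 0.00590). *Dusp10* fell by 0.81, *Dusp7* by 0.64, *Dusp16* by 0.62 and *Nf1*, the neurofibromin gene, by 0.96 on the log2 scale. The count of inhibitors past the threshold was 3 without ONP library b or d at 7 days and 3 with all 4 groups in a single fit.

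In the ONH none of the 18 tested passed, and *Dusp1* had the smallest p, with a log2FC of -1.13 (SE 0.38, adjusted p = 0.246, edgeR). *Rasal1* measured 5.03 ± 4.71 CPM at 7 and 9.05 ± 5.95 CPM at 30 days in the ONH. Its change differed between the regions by -2.90 (SE 0.71, adjusted p = 0.0606, edgeR), short of the threshold. This difference passed with the replicate block and with DESeq2, and also without ONH replicate 1 or ONP replicate 5 at 30 days or ONH library d at 7 days.

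**Figure D5:**
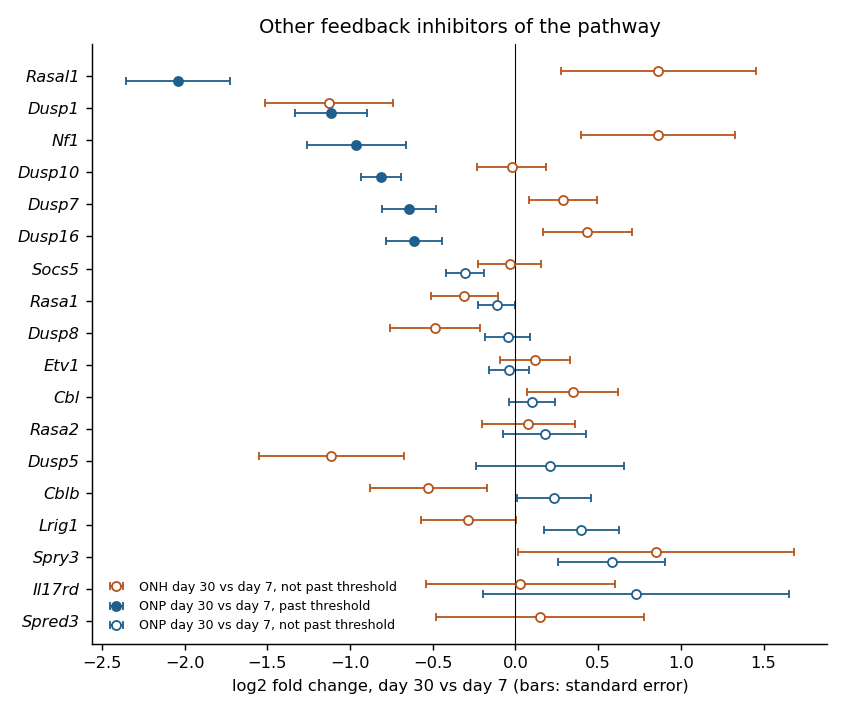
Log2 fold change of 30 vs 7 days (horizontal axis, with standard error) for the tested genes of the list called other feedback inhibitors. The ONH is orange and the ONP blue, and filled points passed an adjusted p of 0.05 with edgeR. The 6 filled points, all in the ONP, lie between -2.04 and -0.62.

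As background for the other lists, 7.82% of all genes were higher and 9.21% lower at 30 than at 7 days in the ONP past the threshold. There the ERK target *Epha2* fell by 1.61 (SE 0.33, adjusted p = 0.00774, edgeR), 1 of 11 tested. The ligand *Fgf2* rose by 0.74 and *Fgf1* fell by 0.67, 2 of 11 tested. Of 14 receptors, *Erbb3* (by 0.88), *Igf1r* (by 0.70) and *Erbb4* fell. In the same comparison 6 of 7 oligodendrocyte markers fell, with a list median log2FC of -0.89, and their part in the changes of these lists was not tested. Of 22 cascade genes, the adaptor *Gab1* fell by 0.29, a call that did not hold with DESeq2, either other scaling, either other filter or the single fit. In the ONH none of these lists held a gene past the threshold with edgeR, whereas DESeq2 and the single fit each called 1 receptor, *Pdgfrb*, lower. With edgeR the smallest p in each belonged to *Epha2*, *Pdgfa*, *Pdgfrb* and *Nras*.

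*Egfr*, the receptor that the *Errfi1* product inhibits, measured 6.11 ± 5.60 and 3.96 ± 1.66 CPM in the ONH at 7 and 30 days, and 3.56 ± 2.17 and 7.09 ± 2.26 CPM in the ONP. Its log2FC of 30 vs 7 days was -0.61 (SE 0.52, adjusted p = 0.619) in the ONH and 0.97 (SE 0.41, adjusted p = 0.124, edgeR) in the ONP. *Fgfr3*, the FGF receptor known from astrocytes, had a log2FC of -0.22 (SE 0.27) and 0.01 (SE 0.31). *Fgfr1* had -0.42 (SE 0.23) and -0.39 (SE 0.15), and *Fgfr2* 0.31 (SE 0.13) and -0.37 (SE 0.14), none past the threshold.

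Between regions at 30 days, receptors were mostly lower in the ONH, with 8 of 14 lower and 2 higher past the threshold, and a list median log2FC of -0.69 against -0.01 over all genes. The same threshold was passed by 20% of all genes in the lower direction and by 21.8% in the higher one. *Egfr* was lower by 0.80 (SE 0.29, adjusted p = 0.0348, edgeR), *Fgfr3* by 1.01 and *Fgfr2* by 0.72 on the log2 scale, while *Fgfrl1* was higher by 1.06. *Erbb3*, which oligodendrocytes express, was lower by 1.65, and *Pdgfrb* (-1.13) and *Pdgfra* (-1.12) were lower and *Igf1r* (0.83) higher as well. Among ligands, 4 of 12 were higher and 4 lower. *Hbegf*, an EGFR ligand, was higher by 1.41 (SE 0.17, adjusted p = 1.94e-05), and *Tgfa*, another EGFR ligand, was lower by 1.25 (SE 0.15, adjusted p = 1.95e-05, edgeR). *Pdgfa*, *Pdgfc* and *Fgf9* were also higher and *Pdgfd* lower. Of 11 other ERK output genes, *Ier3* (1.82), *Ccnd1* (1.65) and *Epha2* (2.23) were higher and *Myc* (-1.64) was lower. Other feedback inhibitors were split, with 5 of 18 higher, among them *Dusp1*, *Dusp16* and *Nf1*, and 5 lower, among them *Lrig1*, *Cblb* and *Spry3*. Cascade genes were split too, with *Ptpn11* (0.91) and *Ksr1* (1.12) among those higher, and *Gab1* (-1.03), *Rps6ka2* and *Frs3* among those lower. Markers of other cell types differed in the same comparison. In the ONH 6 of 7 oligodendrocyte markers (list median log2FC -0.98) and 2 of 3 oligodendrocyte precursor markers (-1.12) were lower past the threshold. All 6 pigment cell markers (5.68) and 2 of 4 neuron markers tested (2.18) were higher past it. The genes of the marker list not reported here were higher in the ONH as well. The part of these cell types in the pathway differences was not tested.

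At 7 days the same ERK output genes, *Ier3* (1.66), *Ccnd1* (1.10) and *Epha2* (1.76), were higher in the ONH past the threshold, again with *Hbegf* (1.67) higher and *Tgfa* (-1.08) lower. *Fgf2* was also higher, and *Fgf1* and *Pdgfd* were lower. Of 14 receptors 1 was higher (*Fgfrl1*) and 3 were lower (*Erbb3*, *Fgfr2* and *Erbb4*), while 6.81% of all genes were lower. All 7 oligodendrocyte markers were also lower at 7 days, without overlap between the groups and with a list median log2FC of -1.85. All 6 pigment cell markers and 3 of 4 neuron markers tested were higher past the threshold, as were genes of the marker list not reported here. The part of these cell types was not tested. *Dusp1* was higher and *Dusp7* and *Rasal1* were lower among 18 other inhibitors, and *Gab1* was the only cascade gene past the threshold. The change over time differed between the regions past the threshold for 0 genes of the 5 lists (edgeR), with 6 other inhibitors, 5 receptors and 3 cascade genes at an unadjusted p under 0.05, as for 2103 of the 16748 genes tested. DESeq2 called 2 inhibitors (*Dusp7* and *Rasal1*) and 2 receptors (*Erbb3* and *Fgfr2*), and fits without a single library called 0 to 3 genes of the 5 lists. The smallest p in each list belonged to *Rasal1*, *Ccnd1*, *Fgf10*, *Erbb3* and *Gab1*.

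Markers of other cell types moved between groups beside these genes. In the ONP the summed level of 7 oligodendrocyte markers, of which *Mbp* was the most abundant, was 79822 to 107422 CPM at 7 days and 25230 to 83376 CPM at 30 days, and 6 of the 7 fell. The ONP sum of 6 endothelial markers was 69.9 to 117 CPM at 7 days and 9.07 to 73.4 CPM at 30 days, and 3 of the 6 fell. In the ONH no marker gene passed for 30 vs 7 days (edgeR), but the log2FC was below 0 for all 6 endothelial markers (median -1.80), all 7 surface epithelium markers tested (median -3.66) and all 4 fibroblast and meningeal markers (median -1.51), with unadjusted p under 0.05 for 3, 5 and 4 of them. There library d at 7 days held 1075 CPM of fibroblast and meningeal markers, and library a held 316 CPM of surface epithelium markers. *Errfi1* correlated with the oligodendrocyte sum at r = 0.50 (permutation p = 0.00291, Spearman's correlation = 0.57, permutation p = 0.00457) over the 22 libraries with group means removed, which did not pass over the 110 relations (adjusted p = 0.118). Without the 2 libraries farthest out r was 0.42. With the fibroblast and meningeal sum r was 0.57 (permutation p = 0.0158, Spearman's correlation = 0.61, permutation p = 0.00645, adjusted p = 0.299), and 0.52 without the 2 farthest. In the ONH the mean fibroblast and meningeal sum was 473 CPM at 7 and 164 CPM at 30 days, while the oligodendrocyte sum was 24626 and 23967 CPM. Over all libraries the sums of 4 further lists ran from 71.2 to 408 CPM for mural cells (highest mean over libraries *Acta2*), from 11.2 to 152 CPM for neurons (*Nefl*), from 47.8 to 328 CPM for oligodendrocyte precursors (*Gpr17*) and from 3.48 to 997 CPM for pigment cells (*Dct*). The endothelial, fibroblast and epithelial genes with the highest mean over libraries were *Cldn5*, *Dcn* and *Krt15*. *Dcn* was the most abundant of its list in 22 of 22 libraries, *Cldn5* in 11, *Krt15* in 7, *Acta2* in 9, *Nefl* in 8, *Gpr17* in 13 and *Dct* in 17, and no marker of these lists was at 0 in all 22 libraries.

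Without replicates 5 and 7 at 30 days, the log2FC of *Errfi1* for 30 vs 7 days in the ONP was -1.35 (SE 0.24, adjusted p = 0.00288, edgeR). Replicate 5 held the most *Errfi1* of its group, so this choice, made after the values were seen, favored a larger difference. The p-value therefore supports nothing further. The part of mRNA from other cell types, among them oligodendrocyte, endothelial, fibroblast, epithelial and pigment cell mRNA, in the differences given for the 10 genes was not tested.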

How the data were processed

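The authors prepared and sequenced all libraries together, aligned the reads with STAR 2.6.1d to mm10 and quantified Ensembl 94 transcripts with Salmon 0.14.2. The expected counts they deposited for each gene are whole and not normalized; they also deposited a table of variance-stabilized values, which was not used here. Counts were analysed in R 4.3.3 with edgeR 4.0.16 (filterByExpr, TMM, quasi-likelihood test), only the groups compared entering each fit and all 4 for the interaction. The unit was the pooled library. The most alike libraries had equal counts for 3.71% of genes. Regions came from the same mice, per the study's methods; at 30 days libraries with 1 replicate number were taken as such pairs. Their deviations correlated at 0.0769 to 0.471, and 3 of 7 ONH libraries were most alike to the ONP library of their own number. Log2 CPM used a prior count of 2. Alternatives were DESeq2 1.42.0, other scalings and filters, a common fit, the replicate block and libraries left out. Positions and exon lengths came from GENCODE M21 (GRCm38), and promoters from RefSeq (GRCm38.p6). Promoters of chromosome 18, where *Spry4* lies, were not searched, and 7 of the 10 genes had a promoter among those searched.

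The members and lists were chosen with earlier results of these data known. Named from each other list were all genes past the threshold up to the 6 with the smallest p, otherwise the gene with the smallest p, and always *Egfr* and *Fgfr1* to *Fgfr3*. Scripts were tested on simulated data. A few genes of the lists, and 1 of the 11 marker lists, are not reported here.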

Additional observations from a re-analysis of the deposited data

Results flagged for a closer look

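Of 40 sets of values (10 genes in 4 groups), 1 held a library far from the others, and chance alone gives about 1 in 20. *Spry4* in replicate 2 of the ONP at 30 days measured 6.74 CPM, while the other 6 libraries lay between 7.83 and 8.64 CPM.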

How the results depend on the processing

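Of the 10 genes' log2FC values under the other settings, 964 kept their side of the threshold or moved by less than the spread between libraries, 5 passed that had not and 1 no longer passed; none that passed changed sign. With pairs of libraries left out after seeing the data, or the 7 day block below, these counts were 66, 2 (*Dusp6* in both) and 2 (*Dusp4* in both). The passes of *Dusp6* were fixed by leaving out the 2 libraries with the most of it, so they support nothing. Most of the values behind the 964 and the 66 had not passed in the main fits, and most fits shared nearly all libraries. These 2 counts therefore say little about how firm the results are. For 30 vs 7 days in the ONH, DESeq2 called 446 genes, the fit of all 4 groups 292 and the lightest filter 2, each including 1 of the 10 (*Errfi1*), and with libraries left out singly 0 to 167 genes and 0 to 1 of the 10 passed. For 30 vs 7 days in the ONP the fit of all 4 groups called 1189 genes, 1 of the 10 and 3 other feedback inhibitors, and leaving out libraries gave 1439 to 3214 genes, 2 of the 10 and 3 to 6 inhibitors. ONH vs ONP gave 5671 to 6416 genes and 3 to 4 of the 10 at 30 days, the fourth being *Spred1*, and 1102 to 2379 genes and 1 of the 10 at 7 days, where DESeq2 called 3211 and the fit of all 4 groups 3785. The interaction gave 22 to 318 genes, 407 with DESeq2 and 50 with the lightest filter, and 0 of the 10 throughout.

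With the replicate block, ONH vs ONP at 30 days gave 6717 genes and the same 3 of the 10, the interaction gave 103 genes and 0 of the 10, and no call on the 10 changed, but *Rasal1* passed in the interaction. At 7 days the numbers of the columns differ from the replicate numbers of the labels, but the regions share 3 of them. A block on these, added after seeing the data, called 860 genes and 0 of the 10 between regions, where *Dusp4* had a log2FC of 2.14 (adjusted p = 0.0942, edgeR) and 2 libraries carried no weight. Same-numbered libraries correlated at 0.0124 to 0.146. The numbers were not taken to pair them because they differ from those of the labels. At 30 days the numbers match the labels and were taken as pairs, although the correlations there began at 0.0769. No paired analysis was possible for 30 vs 7 days because no source ties libraries of different days. Scaling by library size only moved the median of all genes by 0.11 in the ONP over time, 0.11 between regions at 7 days and 0.15 in the interaction. The share of called genes that were higher then went from 45.9% to 66.7%, from 48.2% to 62.4% and from 27.5% to 53.6%, and with DESeq2 that of the interaction was 42.5%. With ONH libraries a and d at 7 days left out, 1 gene passed in the ONH over time and 2985 between regions at 7 days, with 0 of the 10. Libraries a and d held the most *Errfi1* and *Dusp4* of their group, so smaller differences in these 2 genes followed from the choice. With replicates 5 and 7 of the ONP left out, 166 genes passed in the interaction. The causes were not tested. At 7 days the 4 libraries per region and their spread limit what can be detected.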
